A study of Homo sapiens with 4 samples.

Results

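The genes described here are 44 neighbours on the long arm of human chromosome 13, in band 13q14 and its flank, listed along the chromosome from FOXO1 to DLEU1. They include RB1, the retinoblastoma gene, and the deleted-in-leukaemia genes DLEU1 and DLEU2. The genes were chosen by their place on the chromosome and with their RMA and MAS5 differences between the populations already known, so these differences describe the choice and carry no test. The platform annotation assigned at least 1 probe set to a single gene for 43 of the 44, and PHF11, which encodes a PHD finger protein, had none in the annotation used here. The probe set of highest mean RMA stood for each gene, here and for all 19775 genes of the array.

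PLC8024 is a human hepatocellular carcinoma line. Its CD133+ population was compared with its CD133- population, both separated by flow cytometry, and the labels name no drug, dose or genetic change for either. Each population was deposited in 2 processings, as RMA values on the log2 scale and as linear MAS5 intensities. The labels leave unsaid if both were made from a single array, so that a like result in both may be 1 measurement or 2. The processings were not treated as replicates, so no value below has an error between sorts or cultures, and all results are limited to 1 cell line and 1 array per population and processing. An expression floor was set at the median RMA of each population over 54675 probe sets, and a gene passed it if its larger RMA value did. The medians were 5.16 in CD133+ and 5.14 in CD133-. Of the 43 measured neighbours 36 were above the floor, and over the whole array 13116 genes were.

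Band 13q14 is a frequent site of deletion in human cancers, including chronic lymphocytic leukaemia, retinoblastoma and liver cancer. RB1 encodes the protein that holds E2F transcription factors inactive until cyclin-dependent kinases phosphorylate it, and FOXO1 encodes a forkhead factor that insulin signalling keeps out of the nucleus. DLEU2 is the host transcript of the microRNAs miR-15a and miR-16-1, which repress BCL2 and several cyclins.

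The sorted marker's transcript differed in the direction of the labels. The CD133 gene PROM1 stood at 10.35 in CD133+ and 6.04 in CD133- in RMA, 19.9-fold apart. Of 10 liver genes listed as markers of the line, 8 were measured and all 8 were above the floor, with MAS5 intensities summing to 102598 in CD133+ and 118079 in CD133-. Of the 8, 3 had an RMA difference above 0 and 5 below, and ALB, AFP and APOA1 were lower in CD133+ by 2-fold or more by RMA and by MAS5. ALB, which encodes albumin, stood at 7.70 in CD133+ and 11.12 in CD133-. Leukocyte markers summed to 10536 in CD133+ and 4252 in CD133- with 3 of 6 measured above the floor. Most of that sum was LYZ, the lysozyme gene, at 11.14 in CD133+ and 9.42 in CD133-, and PTPRC, the pan-leukocyte gene, was below the floor at 3.01 in CD133+ and 2.94 in CD133-. Endothelial markers summed to 303.3 in CD133+ and 959.1 in CD133- with 1 of 5 above the floor, and fibroblast and stellate cell markers to 902.0 in CD133+ and 547.1 in CD133- with 3 of 6 above it. Most of the endothelial sum was PECAM1, at 268.0 in CD133+ and 912.9 in CD133-. Most of the fibroblast and stellate cell sum was COL1A1, at 594.9 in CD133+ and 430.1 in CD133-. LUM, below the floor, had 131.7 in CD133+ and 14.7 in CD133-. The part of these markers in the values below was not tested. In sorted bulk populations, fewer cells of one type and less RNA per cell cannot be told apart.

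Most of the 13q14 neighbours had somewhat more signal in CD133+ cells. Of the 36 genes above the floor, 33 had an RMA difference, CD133+ minus CD133-, above 0, and 3 had one below 0. Over all 13116 genes above the floor, 48.2% had a difference above 0. The median difference of the neighbours was 0.63 on the log2 scale, or 1.55-fold, against 0.00 for all genes above the floor. Since the genes were listed with these differences known, nothing is read from the distance between these figures.

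Few of the genes reached 2-fold. Counted genes had to pass the floor and to differ 2-fold or more, one way, by RMA as well as by MAS5. HTR2A and MED4 were counted as higher in CD133+, which is 2 of 36 or 5.56%, beside 2.25% of all genes above the floor. HTR2A passed the floor only through CD133+, where it is high, which leaves MED4 as the 1 counted gene above the floor in both populations. None was counted as lower, beside 1.09% of all genes. At a 1.5-fold limit in both processings 19 of the 36 were higher in CD133+, which is 52.8%, beside 5.32% of all genes, and none was lower, beside 4.17%. Just outside the 2-fold limit lay DNAJC15, at 2.03-fold in RMA, whose MAS5 log2 ratio of 0.997 was just under 1.

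**Figure D1:**
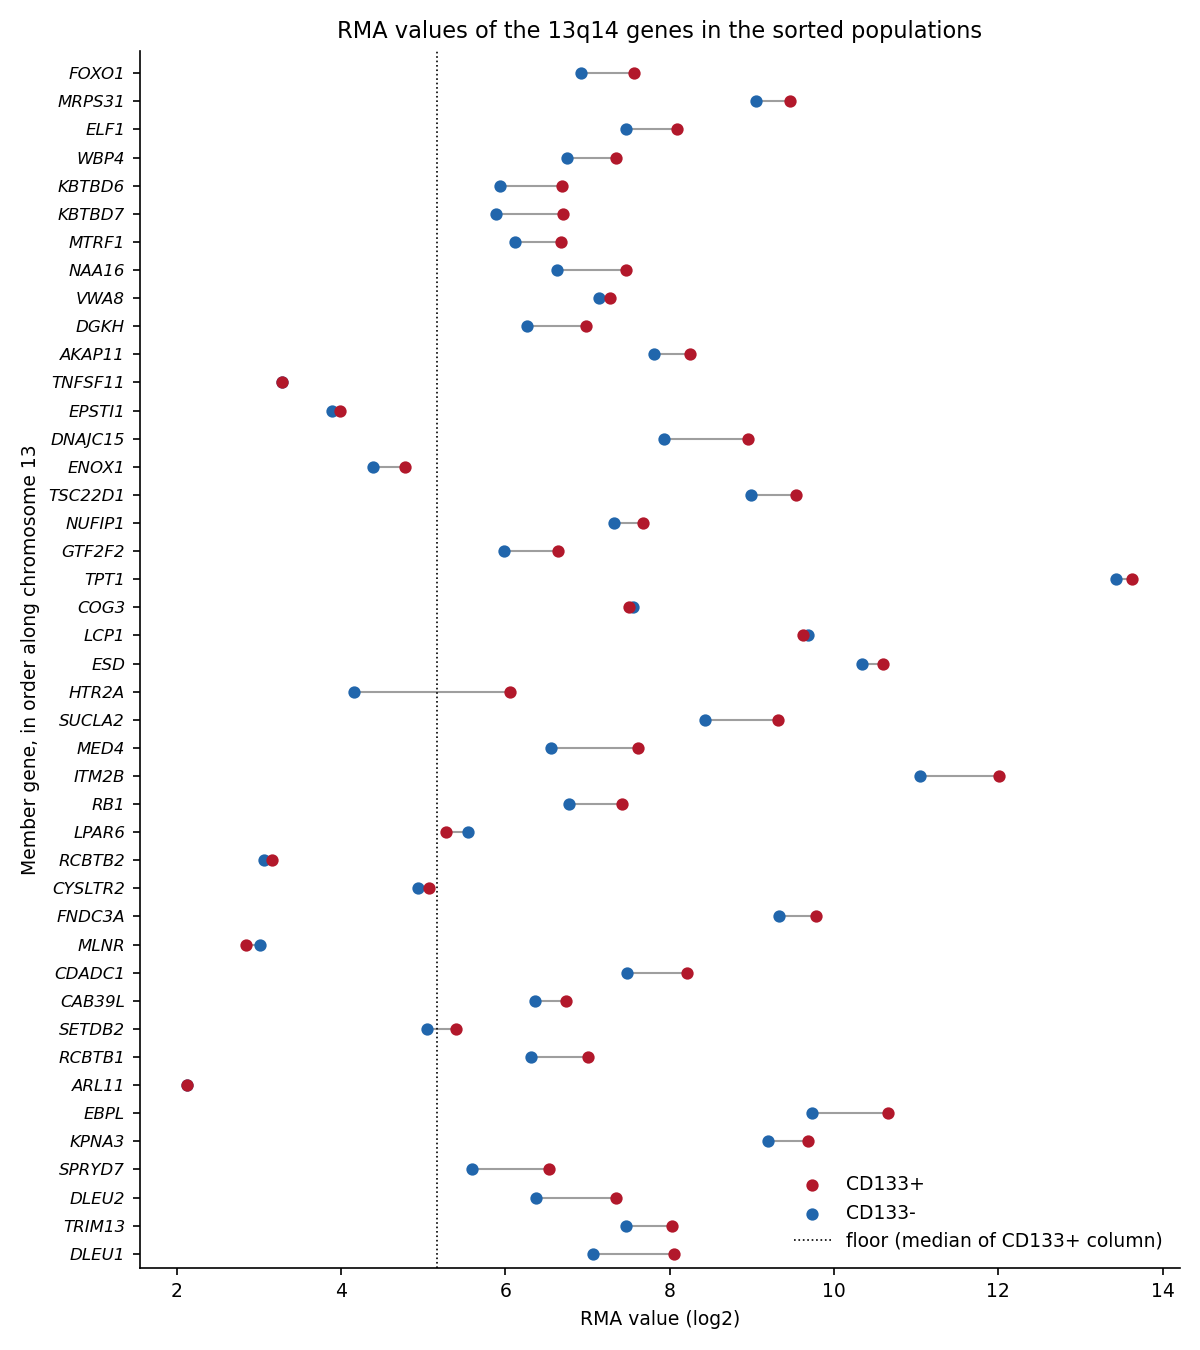
RMA values on the log2 scale of the 43 measured neighbours in CD133+ (red) and CD133- (blue), in gene order from FOXO1 at the top to DLEU1 at the bottom; the dotted line is the CD133+ floor of 5.16. Most red points lie to the right of their blue partner by less than 1 unit, with HTR2A (6.06 in CD133+, 4.16 in CD133-) as the widest pair and LPAR6 (5.27 in CD133+, 5.55 in CD133-) turned the other way.

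All 7 transcription and chromatin genes above the floor were higher in CD133+, with differences from 0.36 to 1.06 and a median of 0.64. RB1 had an RMA value of 7.42 in CD133+ and 6.78 in CD133-, a 1.57-fold difference, and MAS5 intensities of 778.4 in CD133+ and 432.2 in CD133-. The second RB1 probe set was below the floor, at 4.37 in CD133+ and 4.32 in CD133-. FOXO1 had a similar difference, with 7.56 in CD133+ and 6.92 in CD133-, or 1.56-fold, and its second probe set above the floor differed by 0.60. ELF1, which encodes an ETS family factor of lymphoid and epithelial cells, had 8.08 in CD133+ and 7.47 in CD133-. ELF1's second probe set above the floor differed by only 0.29. In the probe sets standing for them, the RMA differences of these 3 genes were 0.65, 0.64 and 0.61. RB1 lies far along the list from the others.

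MED4, which encodes a Mediator subunit, was the highest of this group. Its RMA values were 7.61 in CD133+ and 6.55 in CD133-, or 2.08-fold, and its MAS5 intensities were 929.9 in CD133+ and 327.8 in CD133-, or 2.84-fold. Its other probe set was below the floor and differed by 0.82. GTF2F2, which encodes the small subunit of the initiation factor TFIIF, had 6.64 in CD133+ and 5.98 in CD133-, a difference of 0.66 in RMA and 1.14 in MAS5. TSC22D1, a TGF-beta-induced leucine zipper gene, had 9.53 in CD133+ and 8.99 in CD133-. SETDB2, which encodes a SET domain protein of the histone methyltransferase family, had 5.40 in CD133+ and 5.04 in CD133-. It was above the floor only through CD133+, so no fold is given, and its differences were 0.36 in RMA and 1.59 in MAS5.

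The mitochondrial genes were all higher in CD133+ but less alike. Their 5 differences had a median of 0.57 and ran from 0.14 to 1.02. DNAJC15, which encodes a co-chaperone of the inner membrane import motor, had 8.95 in CD133+ and 7.93 in CD133-. SUCLA2, the ATP-specific beta subunit of succinyl-CoA ligase in the citric acid cycle, had 9.32 in CD133+ and 8.43 in CD133-, or 1.85-fold. MTRF1, a mitochondrial release factor gene, had 6.68 in CD133+ and 6.11 in CD133-. MRPS31, which encodes a protein of the small mitochondrial ribosomal subunit, had 9.46 in CD133+ and 9.05 in CD133-, or 1.33-fold. VWA8, which encodes a mitochondrial ATPase, was nearly level with 7.28 in CD133+ and 7.13 in CD133-, and its second probe set differed by 0.39.

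In the probe sets standing for them, genes of ubiquitin ligase adaptors and related proteins had the smallest spread among the role groups of more than 2 genes. The 4 above the floor had differences from 0.55 to 0.82 around a median of 0.73, with an SD of 0.12 between genes. KBTBD7 had 6.70 in CD133+ and 5.88 in CD133-, and its neighbour KBTBD6 had 6.69 in CD133+ and 5.93 in CD133-. These are related genes of BTB-Kelch adaptors of the CUL3 ligase. RCBTB1, another BTB domain gene, had 7.01 in CD133+ and 6.31 in CD133-, and TRIM13, a RING finger E3 ligase gene, had 8.02 in CD133+ and 7.47 in CD133-. Their other probe sets above the floor spread further, at 0.40 for KBTBD6, 0.48 and 0.76 for KBTBD7 and 0.42 for TRIM13. The other gene of the group, RCBTB2, was below the floor at 3.16 in CD133+ and 3.06 in CD133-.

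Genes of RNA processing, protein synthesis and transport were less shifted, with a median of 0.42 over 6 genes. NAA16, an auxiliary subunit gene of the N-terminal acetyltransferase NatA, had the highest difference, with 7.47 in CD133+ and 6.63 in CD133-. WBP4, a spliceosome-associated WW domain gene, had 7.35 in CD133+ and 6.75 in CD133-, and its 3 probe sets spanned 0.53 to 0.60. KPNA3, an importin alpha gene, had 9.69 in CD133+ and 9.19 in CD133-. NUFIP1, which acts in small nucleolar ribonucleoprotein assembly, had 7.67 in CD133+ and 7.32 in CD133-, or 1.28-fold. Its 2 other probe sets differed by 0.79 and 0.54, so the probe set standing for this gene was its lowest.

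TPT1, which encodes the abundant translationally controlled tumour protein, had the highest signal of all 43 neighbours. Its RMA values were 13.63 in CD133+ and 13.43 in CD133-, or 1.15-fold, and its MAS5 intensities 48373 in CD133+ and 35675 in CD133-. All 5 of its probe sets were higher in CD133+, by 0.20 to 0.36. The one standing for TPT1 is an _x_at probe set, which can cross-hybridise. Its values are near the RMA maximum of the array, 14.21 in both populations, and any effect of this on the difference was not tested. COG3, a Golgi tethering complex subunit gene, was level at 7.50 in CD133+ and 7.55 in CD133-, an RMA difference of -0.05, and its MAS5 difference was -0.30.

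Receptor, ligand and signalling genes held both ends of the distribution. Only 5 of the 9 were above the floor, with differences from -0.27 to 1.90. HTR2A, the serotonin 2A receptor gene, stood in RMA at 6.06 in CD133+ and 4.16 in CD133-, and had MAS5 intensities of 492.8 in CD133+ and 70.4 in CD133-. Its CD133- value was under the floor, so it was in the comparison only through CD133+, and its differences were 1.90 in RMA and 2.81 in MAS5. Its 2 other probe sets were below the floor and differed by 1.74 and 1.10. LPAR6, a lysophosphatidic acid receptor gene that lies inside the span of RB1, went the other way in the probe set standing for it. Its other probe set was below the floor and higher in CD133+, by 0.42 in RMA and 1.41 in MAS5. The probe set standing for LPAR6 had 5.27 in CD133+ and 5.55 in CD133-. Its differences were -0.27 in RMA and -0.50 in MAS5, against 0.65 and 0.85 for RB1.

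DGKH, a diacylglycerol kinase gene, had 6.98 in CD133+ and 6.26 in CD133-, with a MAS5 difference of 1.56, while another of its probe sets above the floor was equal in both populations in RMA. AKAP11, an anchoring protein gene of protein kinase A, had 8.25 in CD133+ and 7.80 in CD133-. CAB39L, a relative of the LKB1 complex scaffold CAB39, had 6.74 in CD133+ and 6.36 in CD133- in RMA. Its MAS5 intensities of 373.3 in CD133+ and 392.5 in CD133- gave a difference of -0.07, and it was the one gene above the floor whose processings had opposite signs.

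Among the remaining enzyme, cytoskeleton and membrane protein genes, 6 of 7 above the floor were higher in CD133+, with a median of 0.73. ITM2B, which encodes the membrane protein BRI2, had 12.00 in CD133+ and 11.04 in CD133-, or 1.95-fold, and MAS5 intensities of 19595 in CD133+ and 9201 in CD133-. SPRYD7, a SPRY domain gene, had 6.53 in CD133+ and 5.60 in CD133-, and EBPL, a relative of the sterol isomerase EBP, had 10.65 in CD133+ and 9.73 in CD133-. The SPRYD7 and EBPL differences were 1.91-fold and 1.90-fold. CDADC1, a cytidine deaminase domain gene, had 8.22 in CD133+ and 7.48 in CD133-. FNDC3A, a fibronectin type III domain gene, had 9.78 in CD133+ and 9.34 in CD133-, although its second probe set above the floor differed by -0.26. ESD, the S-formylglutathione hydrolase gene, had 10.60 in CD133+ and 10.34 in CD133-. Its 4 probe sets above the floor differed by 0.25 to 0.59, and the one standing for the gene was the lowest. LCP1, which encodes the actin-bundling protein L-plastin, was the gene below 0, with 9.62 in CD133+ and 9.69 in CD133-.

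The remaining 7 neighbours with a probe set were below the floor in both populations, and their RMA differences ran from -0.16 to 0.39 with a median of 0.09. They were TNFSF11, which encodes the cytokine RANKL, EPSTI1, an interferon-responsive gene, ENOX1, a cell-surface oxidase gene, RCBTB2, CYSLTR2, a leukotriene receptor gene, MLNR, the motilin receptor gene, and ARL11, a small GTPase gene. Their MAS5 differences were scattered, from -4.68 in ARL11, where the intensities were 1.36 in CD133+ and 34.9 in CD133-, to 3.42 in ENOX1, where they were 64.4 in CD133+ and 6.02 in CD133-. TNFSF11 and ARL11 had equal RMA values in both populations. CYSLTR2 was just below the floor at 5.07 in CD133+ and 4.94 in CD133-, and LPAR6 and SETDB2, above, were just inside it.

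The noncoding pair at the end of the list was alike in both processings. DLEU1 stood in RMA at 8.05 in CD133+ and 7.07 in CD133-, or 1.97-fold, and had MAS5 intensities of 992.4 in CD133+ and 473.6 in CD133-. DLEU2 had 7.35 in CD133+ and 6.38 in CD133-, or 1.96-fold, and MAS5 intensities of 669.9 in CD133+ and 329.7 in CD133-. Of the 7 single-gene DLEU2 probe sets 2 were above the floor, and the second of them differed by 0.76. Both are _x_at probe sets, which can cross-hybridise. The others were below the floor and differed by -0.08 to 0.45. A probe set that the annotation gives jointly to MIR15A, DLEU2L and DLEU2 had 6.78 in CD133+ and 5.84 in CD133-, a difference of 0.94, and was left out of the gene values. Both joint probe sets of MIR15A and DLEU2 alone were below the floor, with differences of 0.91 and -0.20, and a joint probe set of KCNRG and TRIM13 was below it with 0.15.

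The microRNAs hosted by DLEU2 were not measured as mature molecules on this array. Their mature sequences are shown because they have one seed in common, bases 2 to 8 in capitals, and a list of their known targets is described further on. They come from RefSeq on build GRCh38.p14, minus strand, at chr13:50049167-50049188 for miR-15a-5p and chr13:50049027-50049048 for miR-16-5p.
hsa-miR-15a-5p: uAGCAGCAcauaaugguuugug
hsa-miR-16-5p: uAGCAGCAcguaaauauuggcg

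The evenness of the shift was read from the spread of the 36 differences. Their SD was 0.39 and their interquartile range ran from 0.40 to 0.85, a width of 0.45. All genes above the floor had an SD of 0.46 and an interquartile width of 0.41. Thus the neighbours were displaced from 0 but were about as spread around their own median as genes of the whole array were around theirs. Without HTR2A, left out after the values were seen, the SD of the other 35 was 0.33 and the median 0.61. Of the 36 genes, 16 lay within 0.2 of the median, 26 within 0.35 and 32 within 0.5. Between 0.5 and 1 there were 20 genes, 3 were at or above 1, and 6 were under 0.3.

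A step from one gene to its neighbour on the list was about as wide as the gap between any pair of its genes. The 35 neighbouring pairs above the floor had a median absolute gap of 0.31, and all 630 possible pairs one of 0.33. Neighbouring genes on all chromosomes had a median gap of 0.28 over 13078 pairs. The step between ESD and HTR2A came to 1.64, but it rests on the HTR2A value in CD133-, which is under the floor. By contrast the differences of DLEU1 and DLEU2, the latter read by an _x_at probe set, lay 0.011 apart. Those of WBP4 and ELF1 lay 0.015 apart, although ELF1's second probe set above the floor differed by 0.29.

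As a measure of technical spread, 2 probe sets of one gene were compared. Array-wide, 6170 genes had more than 1 probe set above the floor, and the gap between 2 probe sets of such a gene had an SD of 0.35 and a median size of 0.19. Among the 36 neighbours 19 had such a second probe set, whose gaps had an SD of 0.29 and a median size of 0.25, and 17 of the 19 had the same sign in both. The median step of 0.31 between neighbouring genes was wider than either of these median gaps between probe sets of one gene. The 2-probe-set spread leaves out variation between sorts, cultures and arrays. Taken probe set by probe set, 65 of 115 were above the floor, of which 60 differed above 0, 4 below 0 and 1 by 0, with a median of 0.54.

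**Figure D2:**
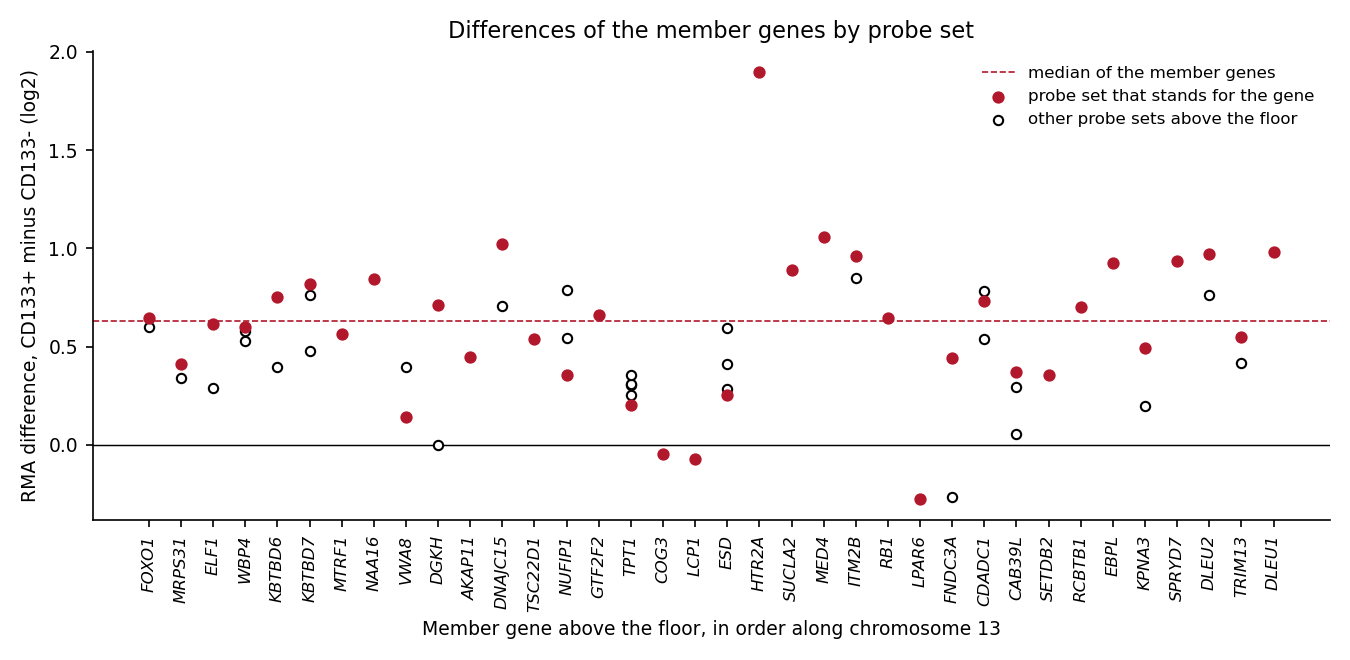
RMA difference, CD133+ minus CD133- (log2), of each probe set above the floor for the 36 neighbours in gene order; filled red points stand for the gene, open points are its other probe sets, and the dashed line is the gene median of 0.63. Open points lie a median of 0.25 from their filled partner, against a median step of 0.31 between neighbouring genes, with FNDC3A's second probe set at -0.26 on the other side of 0.

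The processings ranked the neighbours alike. Across the 36 genes, which are not independent replicates and whose processings may or may not share an array, the RMA difference and the MAS5 log2 ratio correlated with a Pearson coefficient of 0.846 and a Spearman coefficient of 0.770. Both were above 0 in 32 genes and below 0 in 3. The MAS5 difference was further from 0 in 25 of the 36, and its median was 0.78 with an SD of 0.59. Array-wide, the MAS5 gap between 2 probe sets of one gene had an SD of 0.79.

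**Figure D3:**
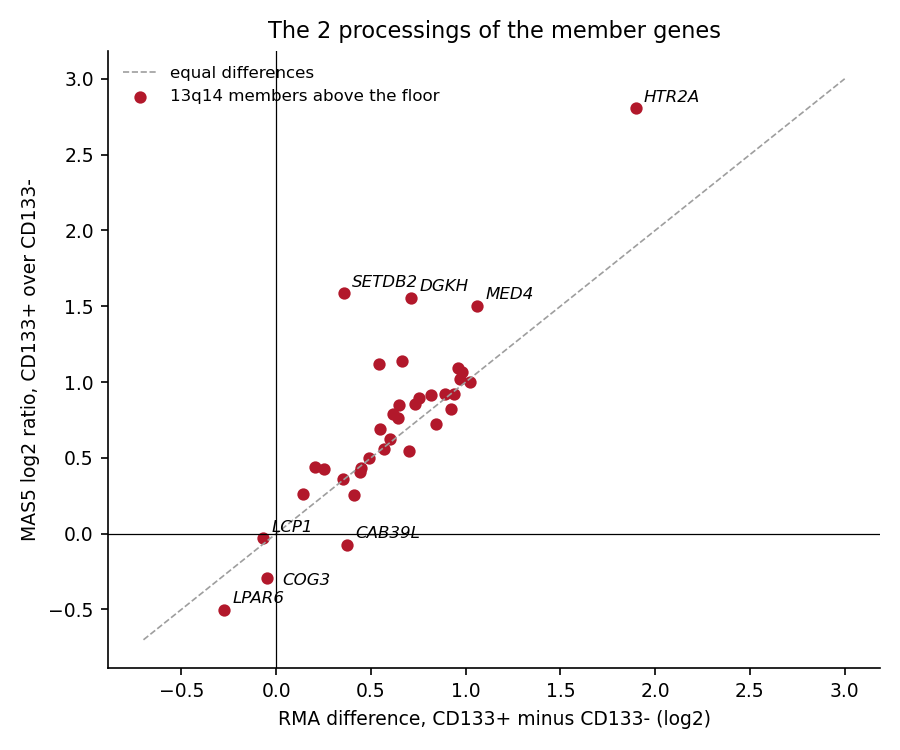
MAS5 log2 ratio, CD133+ over CD133-, against the RMA difference, CD133+ minus CD133- (log2), of the 36 neighbours above the floor, with a dashed line of equal differences. Most points lie near or above the line between 0.3 and 1, SETDB2 and DGKH lie far above it, and CAB39L (0.37 and -0.07) is the one point with opposite signs.

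Along the chromosome the shift was neither uniform within the list nor bounded by it. The stretches that follow were set after the values were seen and hold every gene above the floor in RefSeq order, listed or not. From FOXO1 to GTF2F2 the 15 listed genes were all higher in CD133+, with a median of 0.61 and an SD of 0.22. All 23 genes of that stretch had a median of 0.57 and an SD of 0.32, and the unlisted FABP3P2, LOC105370178, LINC00330 and SERP2 differed by -0.14 to 0.16. From TPT1 to ESD the 4 listed genes had a median of 0.08, and all 10 genes of that stretch lay between -0.07 and 0.30 with a median of 0.22. From HTR2A to DLEU1 all 17 genes above the floor were on the list, 16 of them were higher in CD133+, and the median was 0.73. Among the listed genes, the smallest RMA differences other than those of VWA8 and LPAR6 thus stood side by side, in TPT1, COG3, LCP1 and ESD. This holds for the probe set standing for each gene, and ESD's others above the floor reached 0.59. It does not hold in MAS5, where TPT1 and ESD, at 0.44 and 0.43, were above MRPS31, NUFIP1 and FNDC3A, at 0.26, 0.36 and 0.41. COG3 and LCP1 stayed low in MAS5, at -0.30 and -0.03. The MAS5 medians over all genes were 0.76 from FOXO1 to GTF2F2, 0.43 from TPT1 to ESD and 0.86 from HTR2A to DLEU1.

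The 14 genes above the floor that lie between the listed ones but are not on the list were mostly higher in CD133+ by less. Their median was 0.25, and 13 of the 14 were above 0. GPALPP1, a GPALPP motif gene read by an _x_at probe set, which can cross-hybridise, was the one counted, with 7.59 in CD133+ and 6.51 in CD133-, and differences of 1.08 in both RMA and MAS5. OR7E37P, an olfactory receptor pseudogene also read by an _x_at probe set, had 9.47 in CD133+ and 8.54 in CD133-. TPTE2P5 differed by 0.56 and SLC25A15, a mitochondrial ornithine carrier gene, by 0.31. TPTE2P5, at 4.78 in CD133-, and RUBCNL passed the floor only through CD133+. In the TPT1 to ESD stretch, TPT1-AS1, CPB2, ZC3H13, SLC25A30, RUBCNL and LRCH1 differed by 0.30, 0.29, 0.26, 0.24, 0.14 and 0.13. The others were LOC105370178 at 0.16, FABP3P2 at 0.08, LINC00330 at 0.06 and SERP2 at -0.14.

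Before FOXO1 most genes of a neighbouring block were also higher in CD133+. The 13 genes from SOHLH2 to LINC00598 had a median of 0.57, 12 of them above 0, and the 64 genes before those had a median of -0.08, with 18 above 0. The 6 genes next to FOXO1 were all above 0. COG6, another Golgi tethering subunit gene, had 8.07 in CD133+ and 7.34 in CD133-, and UFM1, a ubiquitin-like modifier gene, had 7.62 in CD133+ and 7.01 in CD133-. NHLRC3, PROSER1, LINC00598 and TRPC4 differed by 0.47, 0.33, 0.28 and 0.04. Within the block, SMAD9, a BMP pathway gene, differed by 1.56, and SPART, the spartin gene, by -0.80. SOHLH2, RFXAP and SMAD9 passed the floor only through CD133+, with CD133- values of 4.87, 4.71 and 3.84. Their differences, 0.65, 0.60 and 1.56, are part of the block's median and count. RFXAP, SMAD9 and SPART were named after their values were seen.

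Past DLEU1 most differences were lower, with exceptions. RNASEH2B, which encodes a subunit of ribonuclease H2, had 6.77 in CD133+ and 4.84 in CD133-, which is 1.93 apart in RMA and 1.90 in MAS5, with its CD133- value under the floor. The 5 genes after it, FAM124A, INTS6, INTS6-AS1, WDFY2 and DHRS12, differed by 0.07, -0.12, 0.11, 0.15 and -0.13. Further on, NEK3 and VPS36 differed by 0.59 and 0.58. The 11 genes from RNASEH2B to SUGT1 had a median of 0.20. The 88 from PCDH17 to the end of the chromosome had one of 0.24 with 70 above 0.

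**Figure D4:**
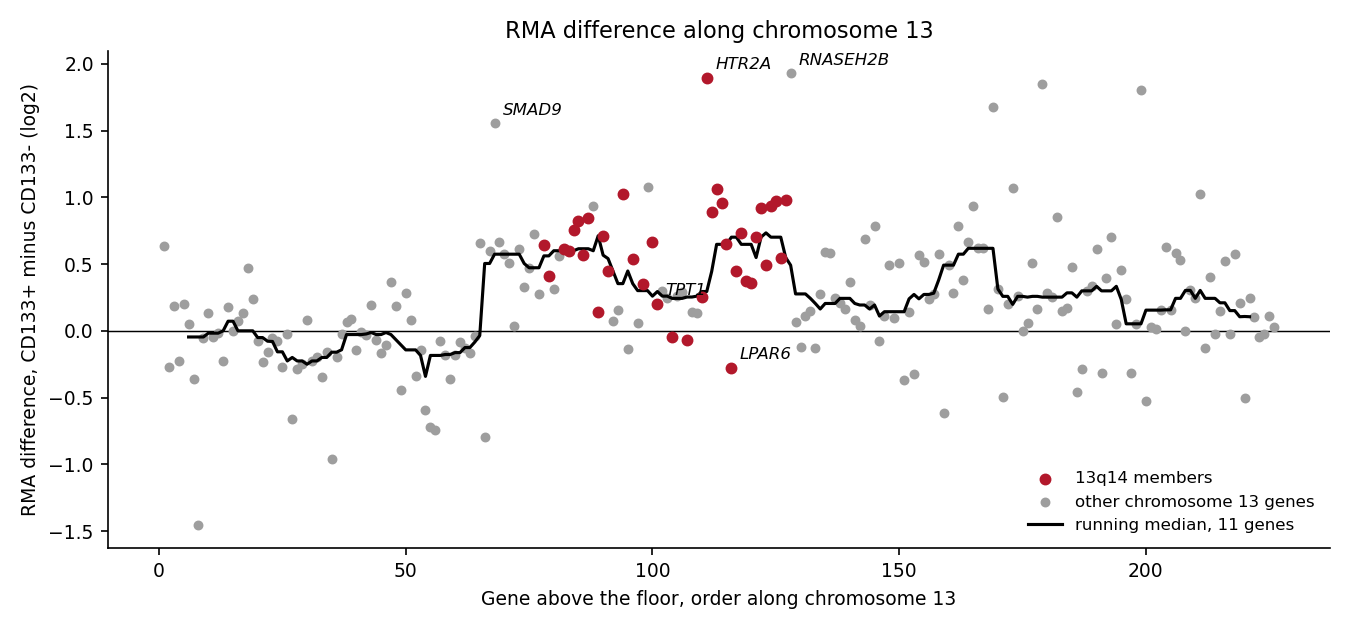
RMA difference, CD133+ minus CD133- (log2), of the 226 chromosome 13 genes above the floor in RefSeq order; red points are the 36 listed neighbours, grey points the other genes, and the black line the running median over 11 genes. The line lies near or under 0 before the SOHLH2 block, reaches 0.73 among the listed genes with a dip to 0.24 around TPT1, and stays between 0.05 and 0.62 after DLEU1.

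Over the whole of chromosome 13 the other 190 genes above the floor had a median of 0.14, and 122 of them were above 0. The running median over 11 genes lay between 0.24 and 0.73 from FOXO1 to DLEU1, and 0.73 was its highest value on the chromosome. Before FOXO1 it ran between -0.34 and 0.57, and after DLEU1 between 0.05 and 0.62. With the listed genes included, chromosome 13 had a median of 0.19 and 68.6% of its 226 genes above 0. That pooled median holds genes listed with their differences known, so its rank among chromosomes is not read. Chromosome 7 had a median of 0.15, slightly above the 0.14 of the other 190 chromosome 13 genes. The lowest was chromosome 8, with -0.17.

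**Figure D5:**
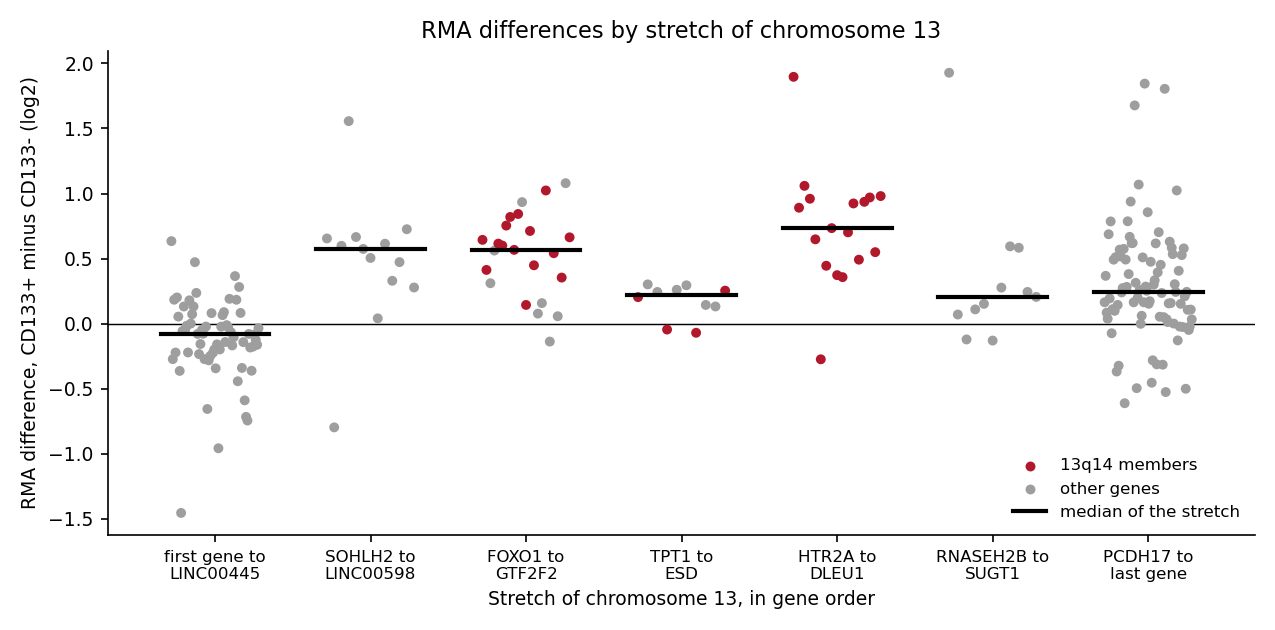
RMA difference, CD133+ minus CD133- (log2), of chromosome 13 genes above the floor, grouped into 7 stretches in gene order; red points are listed neighbours, grey points other genes, and black bars the medians of -0.08, 0.57, 0.57, 0.22, 0.73, 0.20 and 0.24 from left to right. The listed genes fall into a higher, a lower and a higher stretch.

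The promoters of the neighbours were compared with those of other genes because the listed genes differed together. RefSeq windows on build GRCh38.p14 ran from 250 bases before to 50 after a start, and 40 of the 44 genes had at least 1. Their 54 windows had a median GC content of 60.8% and a median CpG ratio, observed over expected from base composition, of 0.804. All 35116 windows of the table had medians of 58.7% and 0.579, and the 838 other windows of chromosome 13 had 52.7% and 0.442. The 45 windows of listed genes above the floor had a CpG ratio of 0.815, and the 9 windows of those below it one of 0.317. Windows of other genes were not split by the floor, so a high ratio is not read as particular to the listed genes. The RB1 window, with 0 CpG, is not at the start of the RB1 span.

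No searched motif was held by most of the windows other than GGGCGG. Motifs were matched on both strands, with overlaps between motifs allowed. The SP1-type GC box GGGCGG stood in 55.6% of the neighbours' windows and 45.0% of all windows, CCAAT in 33.3% and 34.6%, and TATAAA in 14.8% and 11.5%. The E2F-type motifs TTTCGCGC and TTTGGCGC stood in 1 window each, of KBTBD6 and CDADC1, which is 1.85%, beside 0.515% and 0.652% of all windows. The ETS-type motif CCGGAAGT was in the window of COG3, beside 4.14% of all, and the cAMP response motif TGACGTCA in that of CDADC1, beside 1.85% of all. A match is a description of these letters and not of binding.

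The windows of 5 genes are printed because the results turn on them. A DLEU2 start lies 128 bases from the DLEU1 start, and the GPALPP1 start lies 67 bases from the NUFIP1 start. TPT1 has the highest signal, and HTR2A and LPAR6 are the ends of the distribution. Matches to the searched motifs are in capitals, and GGGCGG on the other strand reads CCGCCC. The positions are chr13:50081919-50082218 on the plus strand for DLEU1 and, on the minus strand, chr13:44989422-44989721 for NUFIP1, chr13:45341134-45341433 for TPT1, chr13:46897004-46897303 for HTR2A and chr13:48413064-48413363 for LPAR6.
DLEU1: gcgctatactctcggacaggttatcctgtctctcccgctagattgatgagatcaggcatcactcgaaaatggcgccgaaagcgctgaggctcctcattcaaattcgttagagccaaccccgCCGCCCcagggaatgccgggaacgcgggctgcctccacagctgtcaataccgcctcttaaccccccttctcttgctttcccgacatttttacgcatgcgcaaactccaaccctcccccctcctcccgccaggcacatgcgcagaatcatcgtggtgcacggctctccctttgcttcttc
NUFIP1: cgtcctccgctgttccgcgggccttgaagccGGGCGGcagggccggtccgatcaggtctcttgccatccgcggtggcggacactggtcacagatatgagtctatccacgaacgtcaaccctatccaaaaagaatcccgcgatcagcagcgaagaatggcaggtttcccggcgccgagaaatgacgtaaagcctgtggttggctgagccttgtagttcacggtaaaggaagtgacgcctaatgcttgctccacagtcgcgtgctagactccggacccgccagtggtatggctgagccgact
TPT1: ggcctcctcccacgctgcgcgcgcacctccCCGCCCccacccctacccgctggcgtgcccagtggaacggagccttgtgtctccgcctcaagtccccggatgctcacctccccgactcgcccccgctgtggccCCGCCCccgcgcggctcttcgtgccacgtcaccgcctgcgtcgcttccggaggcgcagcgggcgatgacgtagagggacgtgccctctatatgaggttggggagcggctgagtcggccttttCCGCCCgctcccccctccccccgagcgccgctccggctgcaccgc
HTR2A: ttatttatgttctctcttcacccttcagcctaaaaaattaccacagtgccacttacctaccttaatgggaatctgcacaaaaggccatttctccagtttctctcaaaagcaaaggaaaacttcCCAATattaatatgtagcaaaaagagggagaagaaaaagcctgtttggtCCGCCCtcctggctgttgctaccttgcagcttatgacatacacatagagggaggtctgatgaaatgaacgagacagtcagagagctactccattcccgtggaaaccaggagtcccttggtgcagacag
LPAR6: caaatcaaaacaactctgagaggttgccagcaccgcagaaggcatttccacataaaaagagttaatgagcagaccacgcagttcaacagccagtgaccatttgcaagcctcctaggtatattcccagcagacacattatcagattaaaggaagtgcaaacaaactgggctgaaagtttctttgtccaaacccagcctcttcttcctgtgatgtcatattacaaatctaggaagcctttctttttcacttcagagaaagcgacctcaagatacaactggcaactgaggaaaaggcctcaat

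The DLEU1, NUFIP1 and TPT1 windows are rich in CpG, with 21, 27 and 37 of them and GC contents of 57.7%, 59.3% and 74%. The HTR2A and LPAR6 windows hold 3 CpG each at GC contents of 44.3% and 43.3%. A second HTR2A window in the table holds 9.

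Opposed starts gave 5 pairs in which a listed gene lies within 1000 bases of a gene read from the other strand. DLEU1 and DLEU2, 128 bases apart, differed by 0.98 and 0.97 between the populations. WBP4 and ELF1, 123 bases apart, differed by 0.60 and 0.61, though ELF1's second probe set above the floor had 0.29. TPT1-AS1 and TPT1, 162 bases apart, differed by 0.30 and 0.20, and NAA16 and MTRF1, 771 bases apart, by 0.84 and 0.57. The minus-strand MTRF1 start lies past the plus-strand NAA16 start, so NAA16 and MTRF1 are read toward each other. ELF1, MTRF1 and DLEU2 have further windows, and the closest start was used for each pair. GPALPP1 and NUFIP1 have the closest starts, 67 bases apart, and were the least alike, at 1.08 and 0.35, though NUFIP1's other probe sets had 0.79 and 0.54.

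Genes that act with RB1, FOXO1 and the microRNAs of DLEU2 had list medians between -0.03 and 0.19, against 0.00 for all genes above the floor. The lists were chosen with earlier results of these data known. Of 26 RB and E2F pathway genes 23 were above the floor, 15 of them with a difference above 0, and the median was 0.19 with none counted in either direction. CDKN2A, which encodes the CDK4 and CDK6 inhibitor p16 and the protein ARF, had 8.92 in CD133+ and 7.97 in CD133-, 0.95 apart in RMA and 1.06 in MAS5. TFDP2, an E2F partner gene, had 7.77 in CD133+ and 8.62 in CD133-. RBL1, which encodes the RB relative p107, had 5.90 in CD133+ and 5.19 in CD133-, and E2F7, an atypical repressor gene, had 6.51 in CD133+ and 5.87 in CD133-.

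E2F target genes were centred on 0. All 17 measured of 18 were above the floor, 8 with a difference above 0 and 9 below, with a median of -0.03 and none counted. TK1, thymidine kinase, and PCNA, the replication clamp gene, differed by 0.49 and 0.31, and MCM3, a replicative helicase gene, and POLA1, a DNA polymerase alpha gene, by -0.40 and -0.33.

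FOXO family and target genes went both ways. Of 18 genes 17 were above the floor, 10 above 0 and 7 below, with a median of 0.14, and 1 was counted. The counted gene was TXNIP, which encodes the thioredoxin-interacting protein, with 7.36 in CD133+ and 6.34 in CD133-, or 2.03-fold. BCL6, a transcriptional repressor gene, had 7.61 in CD133+ and 8.91 in CD133-, an RMA difference of -1.30, and its MAS5 difference of -0.97 was just short of the 2-fold limit. GADD45A, a stress response gene, differed by -0.83 and IGFBP1, an insulin-like growth factor binding protein gene of the liver, by 0.61.

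The miR-15/16 targets were near 0 as well. All 10 were above the floor, 7 with a difference above 0, and the median was 0.03 with none counted. FGF2, a fibroblast growth factor gene with a CD133- value of 4.84 under the floor, differed by 0.73 in RMA and by 1.85 in MAS5. CDK6 and CCND1, a G1 kinase and its cyclin, differed by 0.54 and 0.42, and CHEK1, the checkpoint kinase gene, by -0.28. Some genes stand in more than 1 of these lists, among them CCND1, CDK6 and CHEK1, and TFDP1 and IRS2 themselves lie on chromosome 13 outside the listed stretch.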

How the data were processed

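Total RNA of sorted PLC8024 cells was measured on oligonucleotide arrays, with 1 CD133+ and 1 CD133- population. The authors deposited MAS5 intensity values on a linear scale and RMA values on the log2 scale, per the labels. Per the submitters' processing notes, the tools were GCOS, MAS5 and RMA. No version is stated, and which arrays were normalized together is also not given in the sources used here. The MAS5 columns had equal trimmed means of 500.1. No values carry detection calls, so the floor took their place.

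Of 54675 probe sets, 41097 had 1 gene in the platform annotation, 1801 several and 11777 none, and 41043 were matched by gene ID to a RefSeq table of GRCh38.p14, which gave current symbols and the gene order. Python 3.11.15 with numpy 2.4.6 and pandas 2.3.3 computed differences, medians, SDs and counts, after the scripts had been tested on simulated data. With 1 array per population and processing no test was possible and no p-value is given. The number of arrays limits the precision.

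The named genes were all 44 listed neighbours, the 6 genes above the floor next to each end, unlisted genes between them, up to 4 genes per list with the largest differences, and PROM1. RFXAP, SMAD9, SPART, NEK3, VPS36 and the marker genes ALB, AFP, APOA1, LYZ, PTPRC, PECAM1, COL1A1 and LUM were named outside this rule, after their values were seen. The members and lists were chosen with earlier results of these data known. Alternatives were MAS5 in place of RMA, MAS5 with a pseudocount of 50, the median over a gene's probe sets, no _x_at, _s_at or _a_at probe sets, a floor at the 75th percentile, no floor, and a 1.5-fold limit. Motifs, promoter windows and microRNAs were read from RefSeq tables.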

Additional observations from a re-analysis of the deposited data

How the results depend on the processing

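The count of 13q14 neighbours at least 2-fold higher in CD133+ depended on the setting. It was 2 as reported, beside 2.25% of all genes, and 19 at a 1.5-fold limit, beside 5.32%. It was 9 of 36 in MAS5 alone and 6 with a MAS5 pseudocount of 50. The count was 1 with the median over the probe sets of a gene and 1 without _x_at, _s_at and _a_at probe sets. It was also 1 when the floor was the 75th percentile. The share of all genes was not computed for these other settings, so nothing about the neighbours is read from their counts. The SD of the differences was 0.39 as reported and 0.59 in MAS5. The median of the other chromosome 13 genes was 0.14 as reported, 0.089 with the median over probe sets and 0.072 with no floor. These are the values that moved by over 1.5 times, and their cause was not tested. None changed direction under the alternatives run. The median of the neighbours ranged from 0.44 to 0.78, the number below 0 from 2 to 4, and none was counted as lower in any setting. The widest gap to the main median, at 0.44, came with the median over probe sets, which includes probe sets below the floor. Without the genes from TPT1 to ESD, left out after the values were seen, the median was 0.66 and the SD 0.36. No paired analysis was possible because each population had 1 sample per processing and no test was run. Signal near the floor limits HTR2A, SETDB2 and LPAR6.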
